A study of Mus musculus with 4 samples.

Results

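The Mroh genes (maestro heat-like repeat family) were examined in mouse testis at postnatal day 14. The 8 members, Mroh1, Mroh2a, Mroh2b, Mroh4, Mroh5, Mroh6, Mroh7 and Mroh8, were chosen by symbol from the 55335 genes of the deposited count table. They were proposed with their differences between the groups already in view, so those differences are given as a description with no p-value, and the calls of each tool are counted only beside the share of all genes called. The table holds 10 genes with an Mroh symbol; Mroh3 and Mroh9 are the other two. Poly(A) RNA was sequenced from 2 testis samples with the genotype label Znhit1_KO and 2 labelled CTRL, which the labels call biological replicates. ZNHIT1 belongs to SRCAP, a chromatin remodeller that places the histone variant H2A.Z, and the series concerns gene expression at the pachytene stage of male meiosis. The allele, the Cre driver if any, the strain, the genotype of the CTRL animals and whether a sample pooled animals are unstated in the sources used here.

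HEAT repeats are pairs of antiparallel helices that stack into curved superhelices, and proteins built from them commonly act as scaffolds for other proteins. The Mroh proteins are long proteins of this kind, and most have no well established function. MROH2B, also called SPIF, is a sperm protein known to interact with protein kinase A, the kinase that drives sperm capacitation, and MROH1 has been linked to lysosomes. The juvenile testis at this age holds germ cells up to meiotic prophase, and many genes of later sperm function are first transcribed at the pachytene stage, in part under the transcription factor A-MYB.

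In GENCODE M21 (mm10) all 8 members are protein-coding genes, and 5 of the 8 lie on chromosome 15. Mroh2b (chromosome 15, 4898737 to 4962205, plus strand), Mroh2a (chromosome 1, 88226986 to 88262289, plus strand) and Mroh1 (chromosome 15, 76380261 to 76453038, plus strand) have long coding sequences of 4743, 5037 and 4920 bases in 42, 43 and 44 exons. Mroh4 (chromosome 15, 74606029 to 74636353, minus strand) and Mroh8 (chromosome 2, 157208550 to 157279549, minus strand) have shorter ones, of 2949 bases in 27 exons and 3147 bases in 25 exons. Mroh7 (chromosome 4, 106680417 to 106730925, minus strand) has a coding sequence of 3837 bases. Mroh5 (chromosome 15, 73761410 to 73839699, minus strand) and Mroh6 (chromosome 15, 75884137 to 75888770, minus strand) have the shortest, of 1281 and 2166 bases. No stretch of 50 bases was shared between the transcripts of any 2 of the 10 Mroh genes, on either strand.

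The RefSeq promoter table (GRCm38.p6) held 4 of the 8 members, Mroh2a, Mroh2b, Mroh7 and Mroh8. The 250 bases before the start site are printed for Mroh2a, Mroh2b and Mroh8, because these 3 members had lower values together in Znhit1_KO. Capitals mark a match to the A-MYB core searched here, AACNGCC on either strand. The windows are chr1:88226770-88227019 (plus strand), chr15:4898487-4898736 (plus strand) and chr2:157279550-157279799 (minus strand), each 5′ to 3′.
Mroh2a: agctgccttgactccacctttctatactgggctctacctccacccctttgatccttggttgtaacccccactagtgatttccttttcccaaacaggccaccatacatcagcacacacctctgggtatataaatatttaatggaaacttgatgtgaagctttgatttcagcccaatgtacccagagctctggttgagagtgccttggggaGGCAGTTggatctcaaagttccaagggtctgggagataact
Mroh2b: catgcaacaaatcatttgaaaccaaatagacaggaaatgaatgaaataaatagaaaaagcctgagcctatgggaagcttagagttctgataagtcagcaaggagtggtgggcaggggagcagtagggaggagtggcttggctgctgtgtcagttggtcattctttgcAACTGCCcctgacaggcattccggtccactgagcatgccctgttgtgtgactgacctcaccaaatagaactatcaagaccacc
Mroh8: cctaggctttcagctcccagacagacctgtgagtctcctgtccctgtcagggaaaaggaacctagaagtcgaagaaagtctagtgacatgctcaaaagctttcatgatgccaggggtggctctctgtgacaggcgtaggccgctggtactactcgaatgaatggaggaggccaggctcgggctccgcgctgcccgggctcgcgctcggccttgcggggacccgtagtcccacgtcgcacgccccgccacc

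The A-MYB core began 41 bases before the start site of Mroh2a and 83 bases before that of Mroh2b. It was not found in the Mroh8 window, and in the Mroh7 window it began 42 bases after the start. Of 32851 windows of 300 bases (250 before and 50 after a start site) in the table, 12.1% held this motif. The RFX core GTTGCC and the cyclic AMP response core TGACGT, found in 12.5% and 7.51% of windows, had no match in the windows of these 4 members. Mroh2a and Mroh2b had CpG-poor windows with 0 and 1 CpG, while the Mroh8 window held 21 and the Mroh7 window 6, beside a median of 7 over all windows. Mroh8 overlaps the gene Rpn2 on the opposite strand by 533 bases. Whether the Mroh8 window lies in Rpn2 was not examined, so its CpG count need not belong to Mroh8 alone. A match of letters is not evidence of binding, and no binding was measured here.

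The deposited estimated counts summed to between 129531714 and 157790457 per library, and mitochondrial genes took 3.12% to 4.12% of them. Znhit1 itself measured 17.3 and 31.9 CPM (counts scaled to library size) in the CTRL pair and 3.15 and 2.14 CPM in the Znhit1_KO pair; pairs of values are given with replicate 1 first. Among markers of the labelled tissue, the 9 Sertoli cell markers summed to between 5241 and 7418 CPM and the 8 pachytene spermatocyte markers to between 779 and 2715 CPM. The 8 round spermatid markers summed to between 11.2 and 32.3 CPM.

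Mroh4 was the most abundant family transcript in all 4 libraries. Levels are compared between genes as the authors' TPM, which are scaled to transcript length and library size. Mroh4 stood at 183 and 377 TPM in the CTRL pair and at 81.6 and 134 TPM in the Znhit1_KO pair. It ranked 826th and 269th among 25236 genes in the CTRL libraries and 2750th and 1464th in the Znhit1_KO libraries. Mroh1 followed at 58.6 and 67.7 TPM in CTRL, a range that overlapped that of Mroh2b (34.8 and 85.4 TPM). Mroh8 (18 and 34.5 TPM) and Mroh2a (14.4 and 20.7 TPM) came next and overlapped each other. The other 3 members, Mroh5, Mroh6 and Mroh7, stayed below 1 TPM in every library. In Znhit1_KO the order of the expressed members differed: Mroh8 (7.23 and 10.9 TPM), Mroh2b (4.0 and 10.6 TPM) and Mroh2a (3.43 and 5.01 TPM) all lay far below Mroh1 (51.6 and 56.1 TPM), with Mroh2b overlapping both Mroh8 and Mroh2a. The 8 genes together reached 310 and 586 TPM in CTRL against 149 and 218 TPM in Znhit1_KO. The share of Mroh2b in that sum came to 11.2% and 14.6% in CTRL against 2.68% and 4.87% in Znhit1_KO, while that of Mroh1 was 18.9% and 11.5% against 34.6% and 25.8%.

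**Figure D1:**
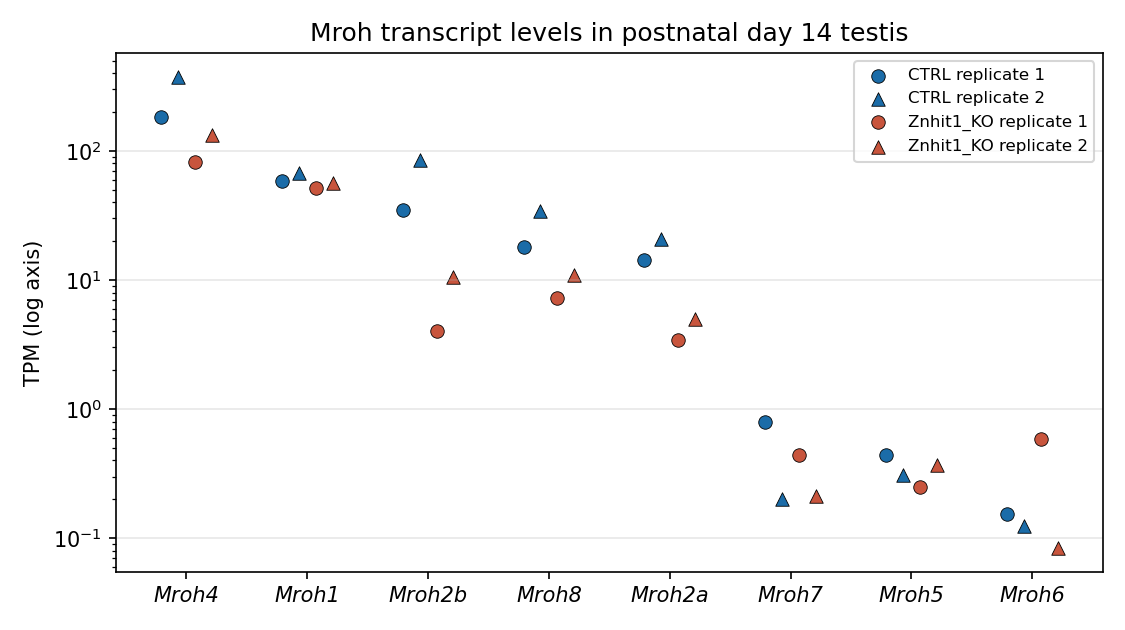
TPM (log axis) of the 8 Mroh genes in each library, ordered by mean CTRL level, with 1 point per library. Mroh4, Mroh1, Mroh2b, Mroh8 and Mroh2a lie above 3 TPM in every library and the other 3 genes below 1 TPM, and for the 5 abundant genes both Znhit1_KO points lie below both CTRL points.

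Mroh2b had the largest difference in the family. It measured 48.8 CPM in CTRL replicate 1, 141 CPM in CTRL replicate 2, 5.96 CPM in Znhit1_KO replicate 1 and 15.2 CPM in Znhit1_KO replicate 2. Both Znhit1_KO libraries were low, and the lowest CTRL value was 3.22-fold above the highest Znhit1_KO value. The means were 95.1 ± 65.4 CPM in CTRL and 10.6 ± 6.51 CPM in Znhit1_KO (SD, n = 2), a 9.0-fold ratio, and the fitted log2 change was -3.17 (SE 0.682). The 2 libraries of a group also differed widely, by 2.90-fold in CTRL and 2.54-fold in Znhit1_KO. Without CTRL replicate 2, which had the highest value, the log2 change was -2.21, and without Znhit1_KO replicate 2 it was -4.02.

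Mroh2a, whose molecular function is not established, measured 35.1 CPM in CTRL replicate 1, 62.8 CPM in CTRL replicate 2, 9.32 CPM in Znhit1_KO replicate 1 and 14.3 CPM in Znhit1_KO replicate 2. The groups did not overlap, with a gap of 2.45-fold between the nearest values. The means were 48.9 ± 19.6 and 11.8 ± 3.55 CPM (SD, n = 2), a 4.14-fold ratio, and the log2 change was -2.05 (SE 0.369), the smallest standard error relative to its change among the members. Over fits that left out 1 library in turn it lay between -2.42 and -1.57.

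Mroh8 measured 22.6 CPM in CTRL replicate 1, 50.9 CPM in CTRL replicate 2, 9.10 CPM in Znhit1_KO replicate 1 and 14.3 CPM in Znhit1_KO replicate 2. The groups did not overlap and the nearest values lay 1.58-fold apart. The log2 change was -1.65 (SE 0.45), and -0.95 without CTRL replicate 2. Mroh8 shares 242 exonic bases, 5.0% of its exonic length, with Rpn2, a subunit of the oligosaccharyltransferase on the opposite strand. Rpn2 was more abundant (383 and 576 CPM in CTRL, 398 and 495 CPM in Znhit1_KO) with a log2 change of -0.10 (SE 0.245), and without stated strandedness reads in the shared bases cannot be assigned to either gene.

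Mroh4, the most abundant member, measured 168 CPM in CTRL replicate 1, 428 CPM in CTRL replicate 2, 78.4 CPM in Znhit1_KO replicate 1 and 135 CPM in Znhit1_KO replicate 2. The groups did not overlap, but the nearest values were only 1.24-fold apart, less than the 2.55-fold difference between the CTRL libraries. The log2 change was -1.48 (SE 0.501). Leaving out CTRL replicate 2 brought it to -0.65, and leaving out CTRL replicate 1 to -2.01.

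Mroh1 differed least among the abundant members. It measured 119 CPM in CTRL replicate 1, 156 CPM in CTRL replicate 2, 107 CPM in Znhit1_KO replicate 1 and 114 CPM in Znhit1_KO replicate 2. Both Znhit1_KO values were below both CTRL values, with a gap of 1.05-fold between the nearest, and the log2 change was -0.32 (SE 0.182). It was -0.11 without CTRL replicate 2.

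In the 3 scarce members the groups overlapped. Mroh7 had estimated counts of 149 and 41 in the CTRL pair and 107 and 51 in the Znhit1_KO pair, and its log2 change of -0.44 (SE 0.723) became 0.71 without CTRL replicate 1. Mroh6 had counts of 18 and 16 in CTRL and 81 and 11 in Znhit1_KO, and its positive log2 change of 1.20 (SE 0.994) came from Znhit1_KO replicate 1, being -0.73 without that library. Mroh5 had counts of 80 and 62 in CTRL and 63 and 72 in Znhit1_KO, with a log2 change of -0.23 (SE 0.464) that lay between -0.47 and -0.078 when 1 library was left out. Mroh3 had an estimated count of 14 in CTRL replicate 1 and 0 in the other libraries. Mroh9 had 0 in all 4. For whole reads a count of 0 would allow up to 3 counts, at most 0.0234 CPM in any library, for counting error only. The counts here are estimates of lower precision, so their limit may be higher.

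**Figure D2:**
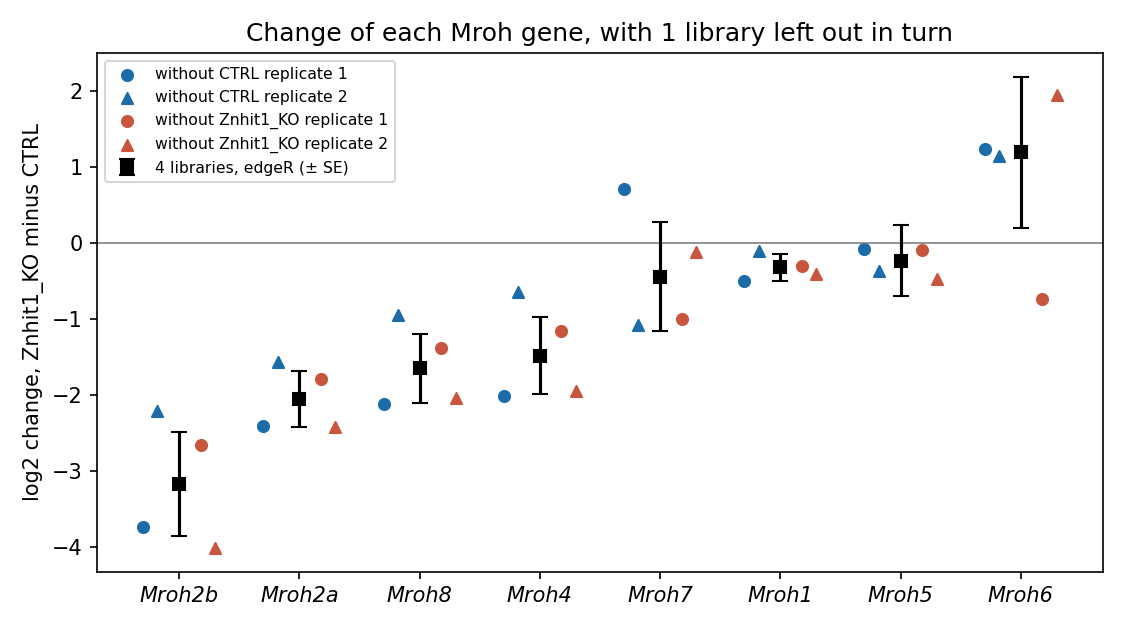
log2 change (Znhit1_KO minus CTRL) of each Mroh gene from all 4 libraries (squares, bars ± SE from edgeR) and with each library left out in turn (coloured points). Mroh2b, Mroh2a, Mroh8 and Mroh4 are negative in every fit, with values nearest 0 when CTRL replicate 2 is left out, while Mroh6 and Mroh7 change sign.

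All 8 members passed the filter on low counts. Of them, 7 had a negative log2 change, as had 46.9% of the 24116 genes tested. In 5 (Mroh1, Mroh2a, Mroh2b, Mroh4 and Mroh8) the Znhit1_KO pair lay wholly below the CTRL pair, as it did in 21.3% of the genes tested. The authors' deposited table marks 4 of the 8 lower (Mroh2a, Mroh2b, Mroh4 and Mroh8) and 0 higher, where it marks 3.22% of its 25236 genes lower and 0.277% higher. In that table the log2 fold changes are -2.05 for Mroh2a, -3.17 for Mroh2b, -1.48 for Mroh4 and -1.65 for Mroh8. The edgeR quasi-likelihood test with Benjamini-Hochberg adjustment called 0 members and 0% of genes, with 2590 genes, or 10.7%, at an unadjusted p under 0.05. DESeq2 called the same 4 members among 922 genes lower (3.61%) and no member among those higher (0.399%), and limma-voom called 0 genes. These members were proposed from this contrast, so nothing is read from their counts. Their median log2 change was -0.96, and -1.65 over the 5 abundant members, beside 0.031 over all tested genes.

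The 5 abundant members ordered the 4 libraries in the same way. In each, Znhit1_KO replicate 1 was lowest, followed by Znhit1_KO replicate 2, CTRL replicate 1 and CTRL replicate 2, an order that 10.4% of tested genes had. Among these members Mroh4 and Mroh8 lay nearest, with a Euclidean distance of 0.249 between their centred log2 CPM values over the 4 libraries. Genes outside the family lay nearer to each, such as Cdc42ep3 to Mroh4 (0.0564) and Shcbp1l to Mroh8 (0.0678). These were searched among 13452 genes, where a near profile is found more easily than among 5 members, so nothing is read from this. Mroh2a lay near Mroh8 (0.508) and Mroh4 (0.746), Mroh2b farther off (1.31 from Mroh2a), and the largest distance was between Mroh1 and Mroh2b (3.07). The 8 pachytene markers, which include Piwil1, Ldhc and Hspa2, had the same library order in their mean, at 0.038 and 0.98 in the CTRL pair and -0.75 and -0.27 in the Znhit1_KO pair on the centred log2 scale. Of these markers, 7 of 8 were lower in both Znhit1_KO libraries, where 21.3% of tested genes were. None is at 0 in all libraries, and they summed to 1395 and 2715 CPM in CTRL against 779 and 1120 CPM in Znhit1_KO. The 9 Sertoli cell markers moved the other way, 8 of 9 being higher in both Znhit1_KO libraries, where 21.8% of tested genes were. Their sums were 5241 and 5622 CPM in CTRL and 7418 and 6392 CPM in Znhit1_KO. Of 6 Leydig cell markers 3, and of 6 macrophage markers 4, were also higher in both. Of 4 endothelial markers 1, and of 5 peritubular myoid markers 0, were higher in both. The 6 spermatogonial markers summed to 576 and 559 CPM in CTRL and 589 and 577 CPM in Znhit1_KO, with 2 lower and 1 higher in both Znhit1_KO libraries. Of 8 round spermatid markers 5 passed the filter, and 2 of these were lower in both and 0 higher. Their mean had the library order of the members too, at 0.21 and 0.29 in the CTRL pair and -0.32 and -0.17 in the Znhit1_KO pair (centred log2). In whole testis RNA, fewer cells of a type and less RNA per cell cannot be told apart, and the part of cell composition in the lower Mroh levels was not tested.

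**Figure D3:**
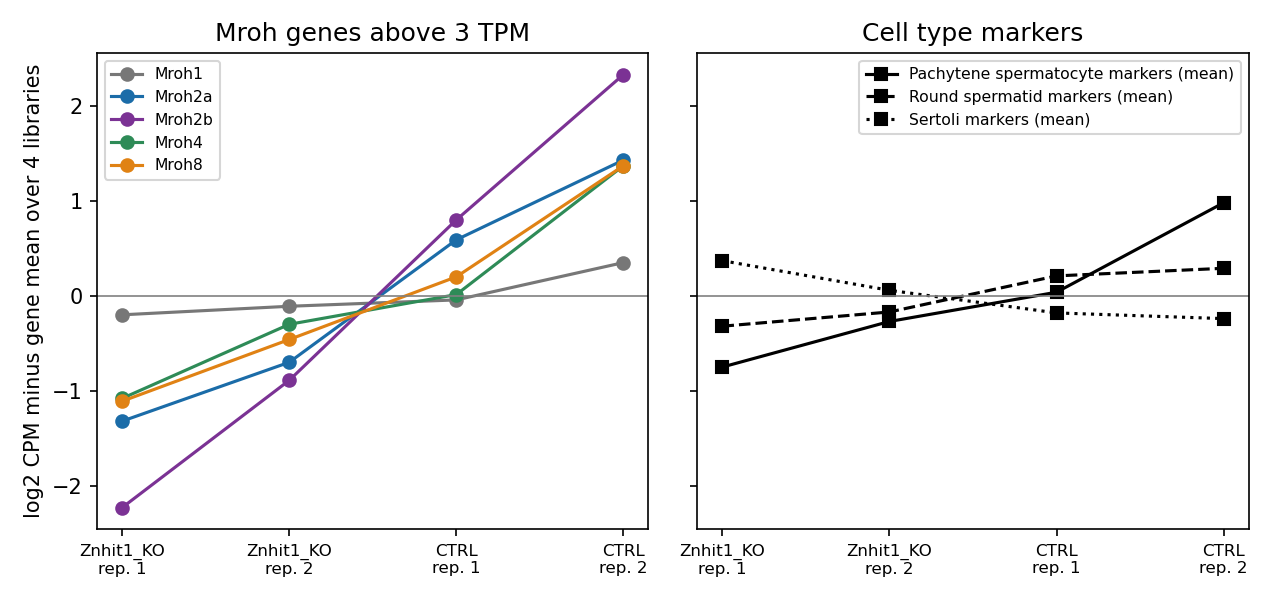
log2 CPM of the 5 abundant Mroh genes (left) and mean of cell type markers (right) in each library, each gene centred on its mean over the 4 libraries; lines only join points of a gene or marker list. The members and the means of the pachytene and round spermatid markers are lowest in Znhit1_KO replicate 1 and highest in CTRL replicate 2. The mean of the Sertoli markers is higher in Znhit1_KO.

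Set against the mean log2 CPM of the 8 pachytene markers in the same library, a scaling chosen after the data were seen, the members separated. Mroh2a stood 0.45 and 0.35 above that mean in the CTRL pair and at -0.68 and -0.54 in the Znhit1_KO pair (log2). The 2 CTRL libraries, which differed by 1.79-fold in CPM, were thus nearly level for Mroh2a on this scale, and its difference between groups was -1.01. Mroh2b stood at 0.92 and 1.52 in CTRL and -1.32 and -0.46 in Znhit1_KO, a difference of -2.11. Mroh8 stood at -0.18 and 0.045 against -0.71 and -0.54, a difference of -0.55. For Mroh4 the values were 2.71 and 3.12 against 2.40 and 2.70, and the nearest libraries differed by 0.005, so the groups were scarcely separated. Mroh1 was higher in Znhit1_KO on this scale, at 2.85 and 2.46 against 2.21 and 1.66. Mroh2a, Mroh2b and Mroh8 were thus lower in Znhit1_KO by more than the pachytene marker mean, without overlap of the groups, and Mroh1 by less. The mean weights the 8 markers equally, among them the scarce Hist1h1t (0.274 and 0.389 CPM in CTRL, 0.462 and 0.367 CPM in Znhit1_KO). The markers themselves ranged from 0.32 (Hist1h1t, SE 0.523) and -0.30 (Mybl1, which encodes A-MYB, SE 0.161) to -2.45 (Pgk2, SE 0.697) in log2 change. Between them lay Tbpl1 (-0.56), Hspa2 (-0.89), Ccna1 (-1.23), Piwil1 (-1.57) and Ldhc (-1.88). Mroh8 (-1.65) and Mroh2a (-2.05) lay within the range of single markers, and Mroh2b (-3.17) below it.

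The genes with profiles most like a member were found among 13452 named genes with a mean of at least 1 CPM, by Euclidean distance over the 4 libraries. Clone-type and predicted-gene symbols, mitochondrial genes and the Mroh genes were left out beforehand, so a gene without a proper name may lie nearer. Nearest to Mroh2b were Cmtm2b (distance 0.0721), Spata16 (0.0986), an acrosome biogenesis gene, and Ccdc42 (0.106), a gene of the sperm head and tail. Spata16 stood at 15.1 and 46.8 CPM in CTRL and 1.86 and 4.57 CPM in Znhit1_KO. Nearest to Mroh2a were Tmprss12 (0.0407), a testis serine protease, Ttc21a (0.0771), a gene of the intraflagellar transport family, and Ankef1 (0.0977). Mroh8 lay nearest to Shcbp1l (0.0678), a gene of the meiotic spindle in spermatocytes, and Cfap46 (0.0866), a central apparatus gene of the axoneme, followed by Rnls. Mroh4 lay nearest to Cdc42ep3 (0.0564), Gstm5 (0.0781) and Tg (0.104), the thyroglobulin gene. The genes nearest to Mroh1 were Fam227a (0.0244), the pre-mRNA cleavage endonuclease gene Cpsf3 (0.0257) and Rnaseh1 (0.0299). With 4 libraries, a short distance describes these libraries only.

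The nearest protein-coding neighbours of the members were compared with them. Of 15 distinct neighbours 13 passed the filter, and the authors' deposited table marks 0 of them in either direction. Hjurp, a centromere chaperone gene whose end lies 182 bases from that of Mroh2a on the opposite strand, stood at 226 and 156 CPM in CTRL and 203 and 152 CPM in Znhit1_KO, with a log2 change of -0.11 (SE 0.246). On the other side of Mroh2a, Ugt1a7c changed by 0.44 (SE 0.377). The complement gene C7, 26557 bases from Mroh2b, had 0.64 (SE 0.365), and C6 on its other side did not pass the filter. Adgrb1 (0.55, SE 0.223) and Arc (-0.081, SE 0.207) flank Mroh4. The cell cycle repressor gene Rbl1, 4016 bases from Mroh8, was lower in both Znhit1_KO libraries (83.1 and 96.2 CPM against 52.3 and 62.7 CPM), with a log2 change of -0.64 (SE 0.174), less than that of Mroh8. Ttc4, 1473 bases from Mroh7, was the other neighbour lower in both (-0.32, SE 0.145), and 6 neighbours were higher in both, where 21.8% of tested genes were. The neighbour with the largest change was the scarce gene Fam151a beside Mroh7, at 0.207 and 0.0156 CPM in CTRL and 0.456 and 0.122 CPM in Znhit1_KO, with overlapping groups and a log2 change of 1.37 (SE 1.27). Mroh1 overlaps Bop1 on the opposite strand by 50 exonic bases, and Bop1 changed by -0.047 (SE 0.153). The microRNA gene Mir6954 shares 60 exonic bases with Mroh1 and did not pass the filter. Mroh5 shares 132 exonic bases with Gm6569, which had at most 0.0148 CPM. The processed pseudogene Ndufb4c overlaps Mroh5 on the same strand by 390 bases, with 0 shared exonic bases. Ndufb4c was more abundant than Mroh5, at 4.91 and 6.88 CPM in CTRL and 3.78 and 5.12 CPM in Znhit1_KO (log2 change -0.41, SE 0.312).

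**Figure D4:**
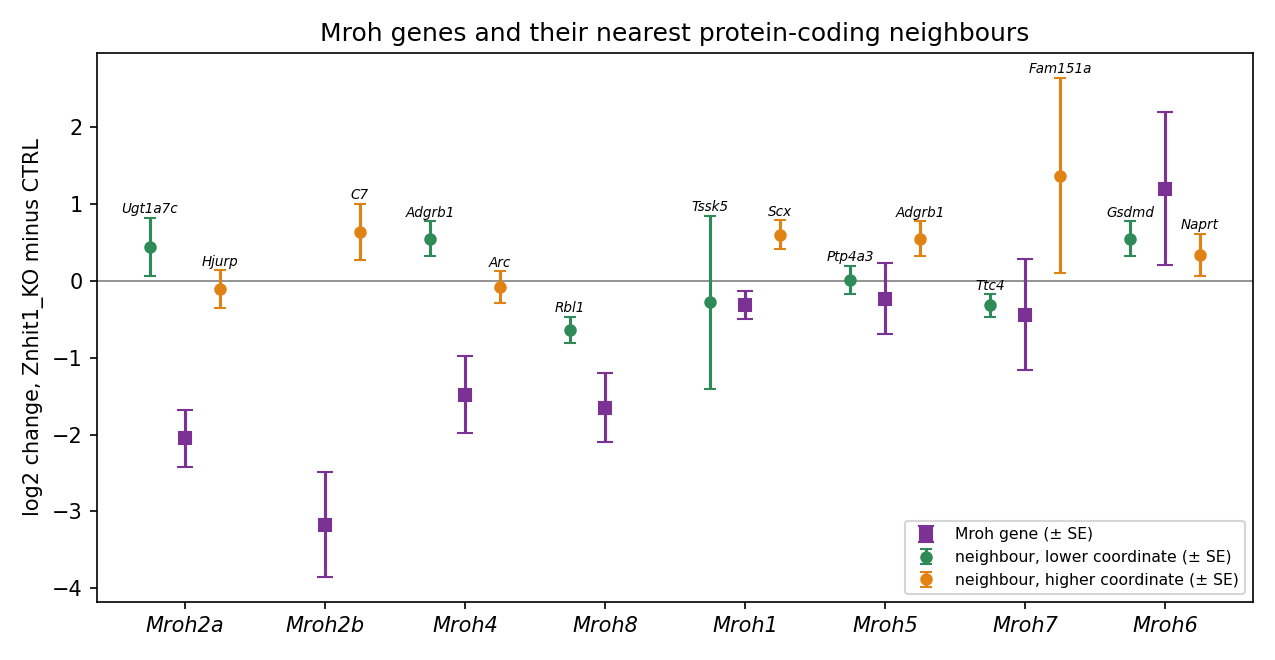
log2 change (Znhit1_KO minus CTRL, bars ± SE from edgeR) of each Mroh gene (squares) and its nearest protein-coding gene on each side (circles), for genes that passed the filter. Neighbours of Mroh2a, Mroh2b and Mroh4 lie between -0.11 and 0.64 while these members lie at -2.05, -3.17 and -1.48.

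Other genes of related structure or function were taken from 3 lists. Of 40 genes for other HEAT repeat proteins, such as Atr (-0.28, SE 0.246), a meiotic checkpoint kinase, and the nuclear import gene Kpnb1 (-0.10, SE 0.177), the authors' deposited table marks 0 in either direction and DESeq2 and edgeR called 0 over all genes. With edgeR 1 had an unadjusted p under 0.05, and the median log2 change was -0.068. Over all genes tested with edgeR, 10.7% had such a p. The authors' deposited table marks 3.22% of all its genes lower and 0.277% higher, and DESeq2 called 3.61% lower and 0.399% higher. No list was tested against these shares. Of 23 genes for armadillo repeat proteins, whose repeats resemble HEAT repeats, the edgeR adjustment over all genes left 0 calls (7 had an unadjusted p under 0.05) and the authors' deposited table marks 4 lower and 1 higher. DESeq2 called 4 lower and 1 higher as well, and the median log2 change was -0.19. Armc3 stood at 13.8 and 28.9 CPM in CTRL and 1.92 and 3.87 CPM in Znhit1_KO, with a log2 change of -2.88 (SE 0.521). Ankar (-3.05, SE 0.599) and Armc4 (-3.34, SE 0.77), a docking factor of axonemal dynein arms, had similar values. These 3 were named because they had the lowest p among the marked genes of the list, and they do not stand for it. Of the 23 genes, 10 were lower and 5 higher in both Znhit1_KO libraries, where 21.3% and 21.8% of tested genes were.

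The protein kinase A list held the kinase and its sperm anchors, and also adenylyl cyclase, phosphodiesterase and chaperonin genes. Of its 17 tested genes, the authors' deposited table marks 2 lower and 0 higher. They are Akap3, a fibrous sheath anchor of the kinase, and Pde1c, a cyclic nucleotide phosphodiesterase. Akap3 stood at 2.77 and 2.83 CPM in CTRL and 1.18 and 0.929 CPM in Znhit1_KO (log2 change -1.41, SE 0.329), and Pde1c at 49.0 and 118 CPM against 20.6 and 38.6 CPM (-1.49, SE 0.501). DESeq2 called 2 lower, the edgeR adjustment over all genes left 0 calls (3 had an unadjusted p under 0.05), and the median log2 change of the list was -0.12. Over all genes 3.22% were marked lower, DESeq2 called 3.61% lower and 10.7% had an unadjusted edgeR p under 0.05. Of the 17 genes, 4 were lower and 4 higher in both Znhit1_KO libraries.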

How the data were processed

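RNA was measured in 4 libraries. The submitters' processing notes name the tools StringTie 2.2.1, HISAT2 2.2.1, DESeq2 1.38.3 and cutadapt 2.5 with the build mm10. Their order and settings, the strandedness and the annotation are unstated. The deposited gene table gives estimated counts as whole numbers. The value 4 occurs in 1109 genes of CTRL replicate 1 but adjacent values in a mean of 736, so its precision is lower than whole reads would give. A second table deposited by the authors holds their TPM per library, mean normalised signal, log2 fold changes, Wald scores and standard errors, and p-values.

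All genes were fitted with edgeR 4.0.16 in R 4.3.3 (TMM, filterByExpr, quasi-likelihood F-test, Benjamini-Hochberg adjustment at 0.05), leaving 24116 genes. Standard errors came from the F statistic, and a prior count of 2 went into log2 CPM. DESeq2 1.42.0 and limma 3.58.1 were alternatives, with other scalings, filters, a replicate block and each library left out. Counts were simulated with independent libraries, the fitted dispersion trend without a spread of its own for each gene, and changed genes above a mean of 1 CPM. On them edgeR recovered 17 of 50 genes set to a 2-fold change, 46 of 50 at 4-fold and 50 of 50 at both 8- and 16-fold. It made 6 false calls. DESeq2 recovered 21, 48, 50 and 50, with 60 false calls. Members, lists and motifs were chosen with earlier results of these data known. Named genes were all members, up to 3 marked genes per list (or the 2 most abundant), overlapping and neighbouring genes, and the 3 nearest profiles. Pgk2, Hist1h1t, Ccna1 and Tbpl1 were named after their values were seen. Positions came from GENCODE M21, matched without version; Mroh5 differs in version.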

Additional observations from a re-analysis of the deposited data

How the results depend on the processing

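Over all genes edgeR called 0, DESeq2 1024, limma-voom 0 and edgeR with the replicate block 2737; leaving out each library in turn gave 0 to 754, with 754 without CTRL replicate 1. Such a fit has 1 library in a group, assumed to vary like the other group. Same-numbered libraries deviated together (r = 0.421 across 24116 genes), but with 2 pairs and no label the number is not shown to pair them. With the replicate block the HEAT, armadillo and protein kinase A lists had 2, 8 and 6 calls, DESeq2 gave 5 armadillo and 2 kinase A calls, and leaving out 1 library gave 0 to 3 and 0 to 1. The 5 members with lower groups numbered 5 as well under the scalings of DESeq2 and total counts. Leaving out 1 library in turn gave no fewer members with separated groups, but a group of 1 library separates more easily. Pachytene marker scaling, added after the data were seen, put the family median at 0.17, with Mroh1 at 0.71, Mroh5 at 0.79 and Mroh7 at 0.77, because that scale subtracts a list that was itself lower. Leaving out 1 library put Mroh6 between -0.73 and 1.95 and Mroh7 between -1.08 and 0.71. Of 96 member log2 changes under alternatives, 91 kept the sign reported. The prior count changes no test, and limma-voom, the block, the filter and the prior change no CPM, so these gave no further counts of calls or of separated groups. Estimated counts were at most 149 for Mroh5, Mroh6 and Mroh7, whose standard errors were the largest of the members relative to their changes. On simulated counts with 2 libraries per group edgeR recovered 46 of 50 genes at 4-fold, while it called 0 genes here. The simulated libraries were independent and had no gene-specific dispersion, while same-numbered libraries here deviated together. The recovery is therefore not the power of this comparison, and the cause of the 0 calls was not tested.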
